A study of Gallus gallus with 3 samples.

Results

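The miR-133 microRNAs (miRNAs) of chicken leg muscle were examined. Their probes were chosen by name alone, as gga-miR-133 with a single letter and no asterisk, which gave 3 of the 542 chicken miRNAs on the array: gga-miR-133a, gga-miR-133b and gga-miR-133c, written miR-133a, miR-133b and miR-133c from here on. The rule used no measured value, and all 3 were detected. The samples were leg muscle of 7-week-old dwarf and normal recessive White Rock chickens, a meat-type breed. The dwarf strain has lost part of the growth hormone receptor gene (GHR), from its exon 10 into the 3′ untranslated region, and feeding did not differ between the strains. Each of 3 two-colour arrays was hybridized with 1 pool of dwarf RNA and 1 pool of normal RNA, and each pool held RNA from 3 chickens, so that 9 chickens stood behind each strain. On arrays 1 and 3 the dwarf pool was stained with Cy5 and the normal pool with Cy3, and on array 2 the dyes were swapped. Values of single chickens are not contained in the pools, and p-values measure only the spread between pools and arrays.

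miR-133 is one of the classical muscle miRNAs. In vertebrates it is made together with miR-1 or miR-206 from shared primary transcripts that muscle transcription factors switch on during differentiation. In mouse myoblasts, miR-133 represses serum response factor and favours proliferation, whereas miR-1 favours differentiation.

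The target sequences given in the scanner files are shown first, because they decide how far the 3 probes can be told apart. Capitals mark the seed (bases 2 to 8 from the 5′ end), through which a miRNA mainly pairs with its targets, and the bases at the 3′ end in which the members differ.
miR-133a: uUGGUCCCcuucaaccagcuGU
miR-133b: uUGGUCCCcuucaaccagcuA
miR-133c: uUGGUCCCcuucaaccagcuGC
The first 20 bases were identical in all 3. With positions numbered from 1 at the 5′ base and the miR-133a base written first, miR-133c differed by U22C. miR-133b differed by G21A and ended there, at 21 bases against 22 for the others. The seed UGGUCCC was found in these 3 miRNAs and in 0 others on the array. The most similar sequence outside the family was miR-1578, at 8 edits from miR-133a and 9 from each of the others. Cross-reading between the 3 probes was not measured, so the 3 probes are best taken as overlapping readings of one family, and the brightness of one probe was not set against that of another.

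In the RefSeq gene table of the assembly bGalGal1.mat.broiler.GRCg7b, the family had 4 genes. MIR133A1 and MIR133A2 both encode miR-133a, and the probe cannot tell them apart. MIR133A1 had MIR1-2 as its nearest miRNA gene and lay within the span of MIB1. MIR133A2 was next to MIR1773, with MIR1-1 beyond it. MIR133B was beside MIR206, and MIR133C was beside MIR1B, within the span of IFI27L2. Each member thus had a gene of miR-1 or miR-206 as a neighbour.

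All 3 members were bright. Each had 6 spots on every array, and the 18 spots of the family read from 3643 to 19963 in Cy3 and from 1406 to 14641 in Cy5 as scanned. The brightest of the 408 empty spots read 859 in Cy3 and 152 in Cy5 over the 3 arrays. The brightest miRNA spot of any kind read 36726, so the family was not at the top of the scanner's range.

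The signals below are intensities after subtraction of a background surface, loess within each array and scaling of the 3 arrays to one median. For miR-133a the dwarf pools had signals of 6382, 2861 and 1736 on arrays 1, 2 and 3, and the normal pools had 4814, 3022 and 3002. The dwarf pools reached both above and below the normal pools. The means were 3659.7 ± 2424 (SD, n = 3 pools) in dwarf and 3613 ± 1041 in normal chickens, and the groups overlapped. The test used log2 signals, whose mean, unlike the linear mean, was lower in dwarf. The log2 difference of dwarf minus normal was -0.15 (exact permutation test of 3 pools against 3 on log2 signals, two-sided p = 0.8).

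The signal of miR-133b was 7398, 3103 and 1749.9 in the dwarf pools, and 5362, 3200.03 and 2793 in the normal pools. Again the highest and the lowest pool were both from dwarf chickens. The means were 4084 ± 2949 (SD, n = 3 pools) in dwarf and 3785 ± 1381 in normal chickens. On the log2 scale the mean was lower in dwarf, with a difference of -0.085 (two-sided exact permutation test on log2 signals, p = 0.9).

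The signal of miR-133c was 27714, 8558 and 7312 in the dwarf pools, and 17613, 10280.2 and 11117 in the normal pools. Here the dwarf pool of array 1 was far above the others, and the dwarf pools of arrays 2 and 3 were below every normal pool. The means were 14528 ± 11436.5 (SD, n = 3 pools) in dwarf and 13004 ± 4014 in normal chickens. On the log2 scale the mean was again lower in dwarf, with a difference of -0.072 (two-sided exact permutation test on log2 signals, p = 1). The smallest p that 3 pools against 3 can give in this test is 0.1.

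**Figure D1:**
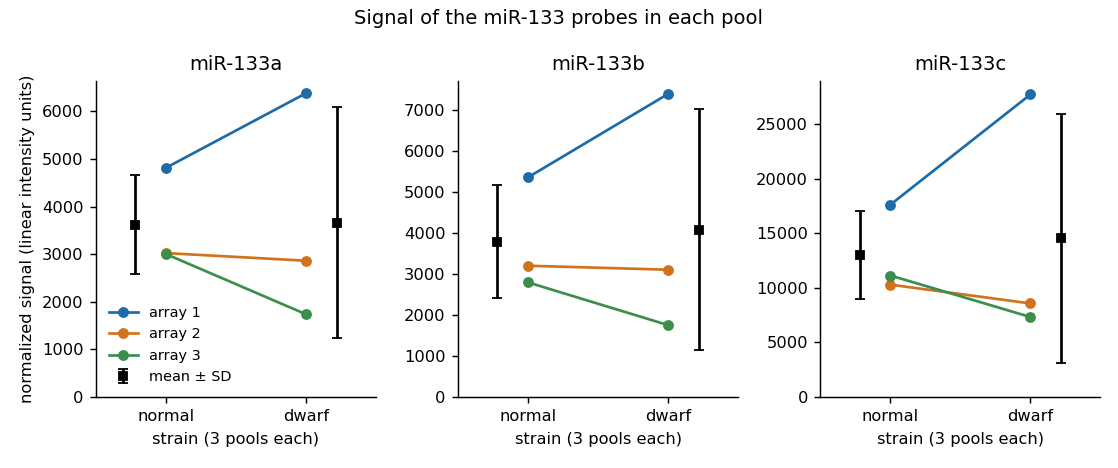
Normalized signal (linear intensity units, vertical axis from 0) of each miR-133 probe in the normal and the dwarf pool of each array, with a line joining the pools of one array and black squares for the mean ± SD of 3 pools. For each probe the dwarf pool of array 1 was the highest and the dwarf pool of array 3 the lowest of the 6 pools.

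The 6 pools stood in nearly the same order for the 3 members. The dwarf pool of array 1 was the highest and the normal pool of array 1 the second for each, and the dwarf pool of array 3 was the lowest. This lowest pool had 27.2% of the signal of the highest for miR-133a, 23.7% for miR-133b and 26.4% for miR-133c. The dwarf pools differed among themselves 3.68-fold for miR-133a, 4.23-fold for miR-133b and 3.79-fold for miR-133c. The normal pools differed 1.60-fold, 1.92-fold and 1.71-fold. Over the 66 miRNAs with a signal above 32 in all 6 pools, the median span was 1.72-fold among dwarf and 1.51-fold among normal pools. No test compared the spans of the strains, which rest on 3 pools each. Among the 97 miRNAs tested, 7 (7.22%) had dwarf and normal pools that did not overlap, and 0 of the 3 members were among them.

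The level of an array as a whole depended on the scaling. The factors that brought the arrays to one median were 1.70, 0.61 and 0.96 for arrays 1, 2 and 3. Before this step, miR-133a stood at 3758 in the dwarf and 2834 in the normal pool of array 1, at 4669 and 4930.2 on array 2, and at 1807 and 3125 on array 3. Array 2 was then the brightest for this member, so the order of pools from different arrays was set in part by the scaling. The span of the dwarf pools without scaling was 2.58-fold for miR-133a, 2.78-fold for miR-133b and 2.14-fold for miR-133c, and that of the normal pools 1.74-fold, 1.80-fold and 1.62-fold. The direction of the linear means turned as well. Without scaling the dwarf and normal means were 3411 and 3629.8 for miR-133a, 3747 and 3762 for miR-133b, and 12631 and 12905 for miR-133c, each lower in dwarf, where the scaled means were each higher in dwarf. The ratio within an array was not touched by the scaling.

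The comparison of the strains rested on a ratio within each array, the log2 of dwarf over normal after normexp background correction (offset 50) and loess. The signals above were made otherwise. They took plain subtraction without an offset and a loess fit on spots above background in both dyes, and spots were averaged on the linear scale. Their ratios can therefore differ from these in size and in sign. Which of these steps made the differences was not tested. For miR-133c the mean log2 difference of the signals was -0.072, and the mean log2 ratio was -0.25. For miR-133a the log2 ratios of arrays 1, 2 and 3 were 0.36, -0.091 and -0.77. For miR-133b they were 0.42, -0.078 and -0.65. For miR-133c they were 0.66, -0.56 and -0.84. All 3 members were thus higher in the dwarf pool of array 1 and lower in the dwarf pools of arrays 2 and 3. Of the 97 tested miRNAs, 13 (13.4%) showed this order of signs, the 3 members among them. The members share most of their sequence and are not separate observations. A ratio of one sign on all 3 arrays was seen in 29 of the 97 (29.9%) and in 0 of the 3 members.

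No strain difference passed the test. The mean log2 ratio was -0.16 for miR-133a (standard error 0.24, 95% interval -0.75 to 0.42, adjusted p = 0.929), -0.10 for miR-133b (standard error 0.23, interval -0.66 to 0.46, adjusted p = 0.940) and -0.25 for miR-133c (standard error 0.30, interval -0.99 to 0.49, adjusted p = 0.929), all from limma with Benjamini-Hochberg adjustment over the 97 miRNAs. Each mean was smaller than the SD between arrays, which was 0.57 for miR-133a, 0.54 for miR-133b and 0.80 for miR-133c. Exact sign-flip permutation of the 3 ratios gave a two-sided p of 0.75 for each member, where 0.25 is the smallest it can give. Of all 97 miRNAs, limma called 0 (0%) at an adjusted p under 0.05 and 6 (6.19%) at an unadjusted p under 0.05, and 0 of the 3 members were among the latter. The methods' t-test paired by array also called 0 after adjustment. The mean ratio was below 0 for 3 of the 3 members and for 31 of the 97 tested miRNAs (32%). All 97 passed the standard for detection in dwarf but 78 in normal chickens, so some entered through the dwarf signal alone. How this bears on the share of ratios below 0 was not tested. The median of the mean ratios over the 97 was 0.068. The intervals still hold changes in both directions, so these arrays do not show that the family was equal in the strains.

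The sign of the mean hung on single arrays. Without array 3 the mean log2 ratio turned to 0.14 for miR-133a, 0.17 for miR-133b and 0.048 for miR-133c. Without array 1 it was -0.43, -0.36 and -0.70. The last of these had an unadjusted p of 0.0305 and an adjusted p of 0.423 (limma). Without array 2 it was -0.20, -0.11 and -0.091. The fit with a dye term, which weights the 2 dye orientations equally, gave -0.15, -0.095 and -0.33 (adjusted p = 0.904, 0.948 and 0.904, limma).

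**Figure D2:**
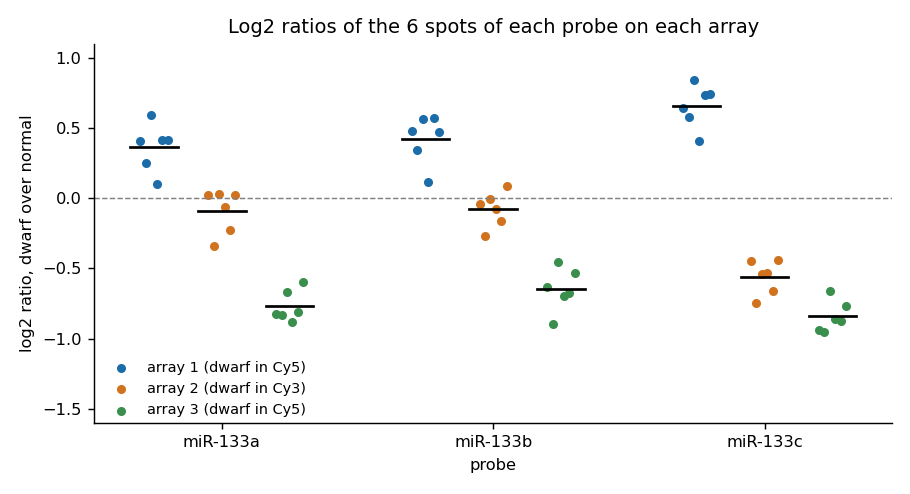
Log2 ratio of dwarf over normal (vertical axis) for each of the 6 spots of each miR-133 probe on each array, with black lines for the mean of the spots. The spots of array 1 lie above 0 and those of array 3 below 0 for every probe, and the spots of array 2 lie around 0 for miR-133a and miR-133b and below 0 for miR-133c.

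The difference between arrays was seen in every spot. On array 1 all 6 spots of each member had a log2 ratio above 0, from 0.10 to 0.59 for miR-133a, from 0.11 to 0.57 for miR-133b and from 0.41 to 0.84 for miR-133c. On array 3 all 6 spots of each were below 0, from -0.88 to -0.59 for miR-133a, from -0.90 to -0.45 for miR-133b and from -0.95 to -0.66 for miR-133c. On array 2 the spots of miR-133a fell on both sides, with 3 below 0 and 3 above. For miR-133b 5 of the 6 were below 0, and for miR-133c all 6 were. The SD between spots of one array was at most 0.17 for miR-133a, 0.17 for miR-133b and 0.15 for miR-133c, and the SD between arrays was 3.41, 3.10 and 5.21 times as large. The spots of each probe lie in an upper and a lower block of the array, 3 in each, and the mean ratios of the blocks differed by at most 0.11, 0.080 and 0.060 for miR-133a, miR-133b and miR-133c. The 6 spots share the same 2 pools and are not replicates of the strains.

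Against the other miRNAs the family stood near the ends of the ranking on 2 of the arrays. The tested miRNAs included dim ones, as 66 of the 97 had a signal above 32 in all 6 pools. The offset draws the ratios of dim miRNAs toward 0, so bright ones such as miR-133 can rank further out by construction. This holds for the ratios, differences and SDs below, and no ranking among miRNAs of like brightness was made. On array 1, 7 of the 94 tested miRNAs outside the family had a higher log2 ratio than miR-133a, 4 a higher one than miR-133b and 2 a higher one than miR-133c. On array 3, 3 of the 94 had a lower ratio than each member. On array 2, 25 and 28 lay below miR-133a and miR-133b, but 2 below miR-133c. The median ratio of the 97 was 0.089, 0.026 and 0.12 on arrays 1, 2 and 3. Arrays 1 and 3 had the same dye orientation, and between them the ratio fell by 1.13 for miR-133a, 1.07 for miR-133b and 1.499 for miR-133c. The median size of this difference over the 97 was 0.33, and 10, 11 and 4 of the 94 had a larger one than miR-133a, miR-133b and miR-133c. The median SD between arrays over the 97 was 0.26, and 15, 15 and 6 of the 94 had a larger SD than miR-133a, miR-133b and miR-133c.

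**Figure D3:**
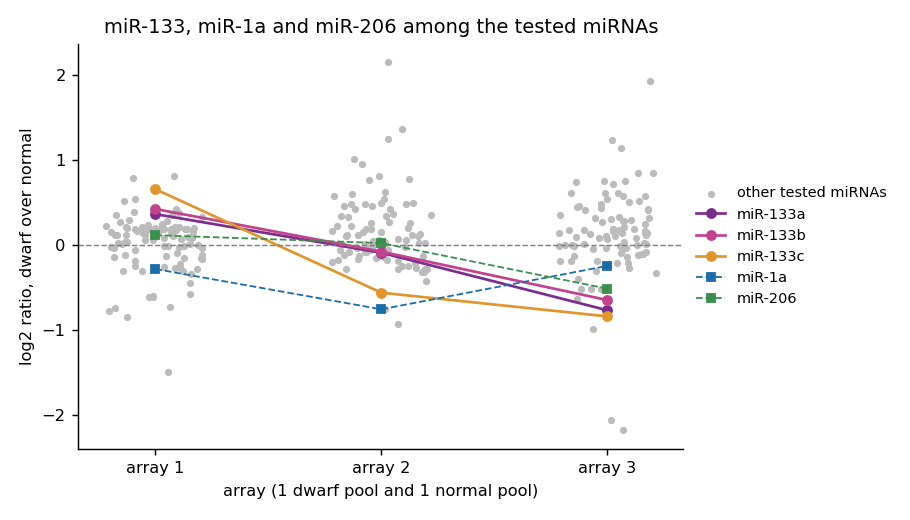
Log2 ratio of dwarf over normal (vertical axis) on each array for the 97 tested miRNAs, in grey, with lines joining the values of the 3 miR-133 probes, of miR-1a and of miR-206. The miR-133 probes lie in the upper part of the range on array 1 and below most of the tested miRNAs on array 3, whereas miR-1a lies below 0 on all 3 arrays.

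The members were then compared with each other through their log2 ratios, which do not depend on the brightness of a probe. miR-133a and miR-133b were close, with differences (miR-133a minus miR-133b) of -0.060, -0.013 and -0.12 on arrays 1, 2 and 3. The mean was -0.064 with an SD of 0.053. It was of one sign on all arrays, and the exact sign-flip permutation test gave a two-sided p = 0.25, the smallest possible with 3 arrays, and 0.75 after Benjamini-Hochberg adjustment over the 3 pairs. miR-133c followed the same direction but in these ratios lay further from 0. miR-133a minus miR-133c was -0.29, 0.47 and 0.073 (mean 0.083, SD 0.38), and miR-133b minus miR-133c was -0.23, 0.48 and 0.19 (mean 0.15, SD 0.36). Both gave a p of 0.75 in the exact sign-flip permutation test, before and after adjustment. The largest gap was on array 2, where miR-133c stood about 0.47 below miR-133a. With plain subtraction in place of normexp and all else kept, miR-133c stood at -0.80 on that array, miR-133a at -0.19 and miR-133b at -0.18. The log2 ratios that the authors deposited came from the same scans, after their own background subtraction and LOWESS. In those, miR-133c, miR-133a and miR-133b stood at -0.24, -0.057 and -0.021. The gap was in the same direction in these 3 sets of ratios and differed in size. The greater distance of miR-133c from 0 depended on the processing. On array 3 the authors' ratios put miR-133c at -0.57, nearer to 0 than miR-133a at -0.75 and miR-133b at -0.64. With loess fitted on all spots, miR-133c stood at 0.029 on array 1, against 0.074 for miR-133a and 0.10 for miR-133b.

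The direction on each array was checked under 11 other ways of making the ratios. Among them, scale normalization between arrays multiplies all ratios of an array by a positive factor, so it could not turn a sign. On array 1 all 11 put each of the 3 members above 0. On array 3, miR-133a and miR-133b were below 0 in all 11 and miR-133c in 10, the exception being a setting with median centring and no loess, with 0.14. On array 2 miR-133c was below 0 in all 11, and miR-133a and miR-133b in 10 each, turning to 0.26 and 0.29 when loess was fitted on all spots. The authors' deposited log2 ratios of arrays 1, 2 and 3 were 0.46, -0.057 and -0.75 for miR-133a, 0.52, -0.021 and -0.64 for miR-133b, and 0.64, -0.24 and -0.57 for miR-133c. They show the same order of signs, from the same scans. The direction of the authors' ratios was itself read from their correlation with the ratios made here, so the equal signs are not a separate check. Before any normalization the picture was one of dye. With the background subtracted alone, the dwarf pool had 0.414, 2.27 and 0.464 of the signal of the normal pool for miR-133a on arrays 1, 2 and 3, so the pool in Cy3 was the brighter on every array.

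**Figure D4:**
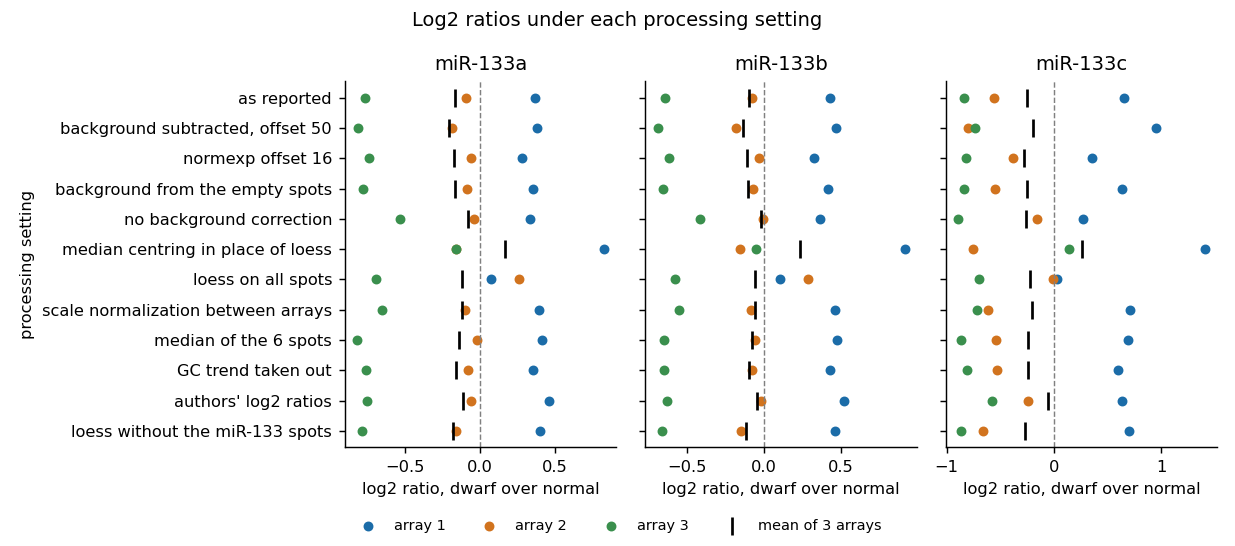
Log2 ratio of dwarf over normal (horizontal axis) of each miR-133 probe on each array, in colours, and its mean over the 3 arrays, as black bars, for the reported processing and 11 other settings (rows). Array 1 lies above 0 in every row, and the mean moves above 0 where arrays were centred on the median without loess.

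The neighbours of the family in the genome were read from the muscle list, which held miR-1a, miR-1b, miR-206 and miR-499. All 4 had probes, 3 were tested, and 0 passed an adjusted p under 0.05 (limma), with miR-1a and miR-499 (2 of the 3) at an unadjusted p under 0.05, beside the 6.19% of all 97. miR-1a, the product of MIR1-2 beside MIR133A1 and of MIR1-1 near MIR133A2, had log2 ratios of -0.28, -0.76 and -0.25 on arrays 1, 2 and 3. Its ratio was below 0 on array 1, where every miR-133 probe was above 0, and its mean of -0.43 did not pass (adjusted p = 0.636, limma). The normalized signal of miR-1a was lower in dwarf on arrays 1 and 2. On array 3 it was higher, at 32213 in the dwarf and 27386 in the normal pool, so the sign there depended on the processing. miR-206, whose gene adjoins MIR133B, had 0.12, 0.023 and -0.51, which is the same sign as miR-133b on arrays 1 and 3, with a smaller size. miR-1b, whose gene lies beside MIR133C, was not detected: its mean signal was 14.96 in dwarf and 1.05 in normal chickens, under the standard of 32 for detection. It had 57.6 in the dwarf pool of array 3 and at most 2.92 in the other 5 pools. The probe of miR-133c was bright in all 6 pools. Its target differs from that of miR-133a only by U22C and cross-reading was not measured, so this brightness cannot be assigned to MIR133C. miR-499, which in mammals is made from an intron of a slow myosin gene, was dim. Its signal was 48.1, 411 and 411 in the dwarf pools and 3.40, 70.2 and 30.7 in the normal pools of arrays 1, 2 and 3, under the standard on arrays 1 and 3 in normal chickens, so its ratios depend on the offset and were not set against those of miR-133. In these ratios neither miR-1a nor miR-206 had the signs of miR-133 on all arrays, which 13.4% of the 97 had, the miR-133 members included. For miR-206 this rested on the ratio of 0.023 on array 2 and depended on the processing. Its normalized signals on arrays 1, 2 and 3 were 3289, 1993 and 2330 in the dwarf pools. In the normal pools they were 2913, 2068 and 3266, so by signal miR-206 had the order of miR-133. The difference between the ratios of miR-1a or miR-206 and those of miR-133 was not tested.

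The 5 tested miRNAs outside the family whose 3 ratios lay closest to the mean of the 3 members (0.48, -0.24 and -0.75) were miR-1777, miR-1607, miR-206, miR-125b and miR-222, by the root mean square distance over 3 arrays. miR-1777 was the closest, at a distance of 0.10, with log2 ratios of 0.55, -0.13 and -0.63. The next were at 0.27, 0.30, 0.38 and 0.39, and the median distance of the tested miRNAs outside the family was 0.65. None of the 5 had the seed of miR-133, and their sequences were between 12 and 16 edits away from that of miR-133a. GC made up 90% of the bases of miR-1777 and 85% of those of miR-1607, against 54.5% for miR-133a, 52.4% for miR-133b and 59.1% for miR-133c. The other 3 of the 5 were not rich in GC, with 45.5% for miR-206, 50% for miR-125b and 54.2% for miR-222. The median of the tested miRNAs was 47.8%. Taking out a linear trend with GC content in each array changed the mean ratios of the members little, to -0.16, -0.10 and -0.24. These are means over the arrays, whereas the likeness lay in the ratios of single arrays. On arrays 1, 2 and 3 the ratios after this step were 0.35, -0.081 and -0.76 for miR-133a. They were 0.43, -0.081 and -0.65 for miR-133b, and 0.60, -0.53 and -0.80 for miR-133c, so those of the members changed little on single arrays too. The part of GC content in the likeness was not tested.

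The lists for other cell types were set beside these ratios. The vessel marker miR-126, typical of endothelial cells, had signs opposite to the family, with log2 ratios of -0.73, 0.26 and 1.15 on arrays 1, 2 and 3. Its signal ranged from 2313 to 6014 in the dwarf and from 2357 to 3833 in the normal pools, and it was the 1 marker of its list. This order of signs was not particular to miR-126. Tested miRNAs outside the list also had it, among them let-7f, let-7g, let-7i, miR-16 and miR-20a. So did miR-15a, miR-20b, miR-30a-5p, miR-30d and the blood marker miR-223. Of the 4 blood markers 2 were tested, miR-451 with 0.20, -0.55 and 0.61 and miR-223 with -0.026, 0.053 and 0.012, and miR-144 and miR-142-3p were below the standard for detection. The summed signal of the blood list ranged from 52.0 to 158 in the dwarf and from 89.5 to 121 in the normal pools. The liver marker miR-122 had at most 139 in the dwarf and 205.8 in the normal pools, and its log2 ratios were -0.15, -0.043 and -2.06, so it was lowest on array 3, as the miR-133 members were. Its signal there was -0.37 in the dwarf and 205.8 in the normal pool, so the size of the last ratio depends on the offset. The 3 brain markers, miR-124a, miR-124b and miR-9, were at most 3.70 in any pool, and subtraction left values as low as -65.1 (miR-9 in the dwarf pool of array 1). The muscle list, without miR-133, summed to between 16132 and 35011 in the dwarf and between 19617 and 31978 in the normal pools, and its markers miR-1a and miR-206 were bright in all 6. In bulk tissue fewer cells of a type and less RNA per cell cannot be told apart, and the part of these cell types in the ratios of miR-133 was not tested.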

How the data were processed

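Each array was 1 replicate. Deposited by the authors were the Cy3 and Cy5 mean intensities of all spots on a linear scale, as scanned by a service provider, without background subtraction or normalization, and a table of 1 log2 ratio per miRNA and array that the authors made after background subtraction and LOWESS. The direction of this table was found by comparison with the log2 ratios of dwarf over normal made here from the scanned values. The correlations were 0.804, 0.872 and 0.849 on arrays 1, 2 and 3 over the tested miRNAs, the members included. The medians of the table over all miRNAs were 0.15, 0.018 and 0.15, and its centring is unknown. The probes were designed from miRBase by the provider.

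Calculations used R 4.3.3 with limma 3.58.1. Background was estimated per array and dye as a robust loess surface over rows and columns (span 0.3, degree 1) through the miRNA spots. For ratios, normexp (offset 50) took in all spots, loess used the miRNA spots (span 0.3, 4 iterations), the 6 spots were averaged, and array 2 was turned. The offset draws dim ratios toward 0. For signals, the loess curve was removed in equal parts from both dyes after subtraction of the surface, and the arrays were scaled to one median. The study took signals above 32 as detected. Here this was applied to the mean of either strain, and the 97 detected were tested by limma (threshold 0.05). Precision is limited by there being 3 arrays. The named miRNAs are the 3 members, the muscle miRNAs beside them and the 5 with the closest ratios. The members were picked by name alone, but the family itself, the marker lists and the tests were chosen with earlier results of these data known.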

Additional observations from a re-analysis of the deposited data

How the results depend on the processing

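No alternative brought a member past an adjusted p under 0.05. Over 22 alternatives the limma or t-test adjusted p ranged from 0.797 to 0.991 for miR-133a, from 0.772 to 0.995 for miR-133b and from 0.423 to 0.995 for miR-133c, and 20 of the 22 mean log2 ratios of each were below 0. Some kept the reported ratios by construction. With arrays centred on the median and no loess the means turned to 0.17, 0.24 and 0.27 (the cause was not tested). Leaving out 1 array in turn gave -0.43 to 0.14 for miR-133a, -0.36 to 0.17 for miR-133b and -0.70 to 0.048 for miR-133c. The pools without the pairing by array (no replicate block) gave -0.15, -0.081 and -0.071.

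The difference miR-133a minus miR-133c turned to -0.012 with subtraction in place of normexp, to -0.098 with median centring and to -0.0585 in the authors' log2 ratios, and miR-133b minus miR-133c turned to -0.030 with median centring. Leaving out 1 array gave -0.090 to -0.037 for miR-133a minus miR-133b, -0.11 to 0.27 for miR-133a minus miR-133c and -0.020 to 0.34 for miR-133b minus miR-133c. For the log2 difference of the dwarf and normal signals, leaving out 1 array gave -0.43 to 0.16 for miR-133a, -0.36 to 0.21 for miR-133b and -0.43 to 0.19 for miR-133c.

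The count of miRNAs called by limma was 0 as reported, 1 (miR-499) with a mean signal above 100, 2 (miR-499 and miR-1623) with the GC trend taken out, and from 0 to 2 when 1 array was left out. Loess without the miR-133 spots, another reading of the dim spots (87 miRNAs tested) and signals without scaling were chosen after seeing the data. Loess without the miR-133 spots kept the direction of the mean log2 ratios, at -0.18, -0.12 and -0.27. The other reading of the dim spots left the mean log2 ratios as they were by construction. Scaling drops out of the log2 difference of the dwarf and normal signals, so its removal could not turn that direction either. Signals without scaling did turn the order of the linear means, to lower in dwarf for all 3 members. The alternatives share the same 3 arrays, and none of them adds a pool.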
